A study of Mus musculus with 48 samples.

Results

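The genes described here are 8 BMP response genes of mouse skin: Id1, Id2, Id3, Id4, Smad6, Smad7, Smad9 and Bambi. They were taken by symbol from the deposited expression tables, in which they are 8 of 46983 genes listed, by a rule that uses symbols and no measured value, though the set was proposed with earlier results of these data known. The study profiled RNA from whole skin of C57BL/6 mice in 3 domains (chin, ventral and dorsal) at 6 labelled hair cycle stages, which gave 43 libraries in 18 groups of 2 or 3. The stages were competent telogen (the first rest phase of the follicle), early, mid and late anagen (growth), catagen (regression) and refractory telogen (the early second rest phase). A further table held 3 libraries of the ear cartilage/muscle complex, 2 of ear telogen skin (rostral, per the labels) and 2 of dorsal competent telogen skin, the last identical in every value to those of the skin table. No allele or treatment was labelled in any group, and the mice's ages were not given in the labels. No label says that the libraries of a group came from separate animals, so the p-values measure only the spread between these libraries, which may be technical.

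On GRCm38 the 4 Id genes are at chr2:152736251-152737410 (Id1), chr12:25093799-25097140 (Id2), chr4:136143497-136145755 (Id3) and chr13:48261228-48266026 (Id4). Smad6 is at chr9:63953076-64022059, Smad7 at chr18:75367529-75395935, Smad9 at chr3:54755582-54801257 and Bambi at chr18:3507923-3516404, and all 8 are protein-coding.

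BMPs are secreted ligands that bind paired type I and type II receptors, which phosphorylate SMAD1, SMAD5 and SMAD9. These enter the nucleus with SMAD4 and raise transcription of the Id genes, whose products bind E proteins and keep them from DNA. The same signal raises inhibitors of itself: SMAD6 and SMAD7 block the receptors and the transducing SMADs, and BAMBI is a membrane pseudoreceptor without a kinase domain. In the hair follicle BMP signaling is known for holding stem cells at rest in telogen and for the differentiation of the hair shaft in anagen. Levels are given in FPKM (fragments per kilobase of transcript, scaled to library size), a scale that can be compared between genes. Differences are given as log2 fold changes of FPKM + 1 with their standard error, and a gene was called at an adjusted p under 0.05 (limma, Benjamini-Hochberg over all genes tested).

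RefSeq windows from 250 bases before to 50 after the start site were at hand for 5 of the 8 (Id2, Id3, Id4, Smad6 and Smad9), and both strands were searched for 2 sequences that SMAD proteins bind. The palindrome GTCTAGAC was found in the window of Smad6, as in 0.248% of 27025 genes. The GC-rich element GGCGCC was found in those of Id2, Id4 and Smad9, as in 13.4% of genes. The matches are shown with the bases around them because they are the letters that these genes' windows share with known SMAD binding sites, and they describe sequence only, not binding. Capitals mark the motif, and each run is read 5′ to 3′ on the gene's strand of GRCm38.p6.
Smad6, chr9:64022045-64022074, minus strand: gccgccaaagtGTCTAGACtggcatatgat
Id2, chr12:25096306-25096335, minus strand: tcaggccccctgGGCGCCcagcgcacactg
Id4, chr13:48260956-48260985, plus strand: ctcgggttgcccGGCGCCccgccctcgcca
Smad9, chr3:54755519-54755548, plus strand: gcacggccgcctGGCGCCcttccagcgcgg
The Smad6 palindrome begins 4 bases before the start site and ends 4 bases after it. The other matches begin 231 bases before the RefSeq start of Id2, 148 before that of Id4 and 51 before that of Smad9. The RefSeq start used for Id2 lies inside the GENCODE span of the gene given above, so its match is upstream of that start only, and it overlaps none of the annotated exons.

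Some libraries stood apart from their stage labels. Counts of calls are given with and without them. A single difference that has chin late anagen, dorsal competent telogen or ventral early anagen on one side cannot be given without that group. Such a difference is marked as resting on it. Only 2 of 21257 genes were called between chin late anagen and dorsal competent telogen (0.00941%), against a median of 6985 over the 153 pairs of groups. They were Gm14811 and Gm24507, named here after their values were seen. The dorsal competent telogen libraries had hair matrix and shaft markers (8 keratin and follicle genes) summing to 16487 to 16671 FPKM, near the 16255 to 16388 of chin late anagen. Proliferation markers summed to 20 to 41 FPKM in the 3 refractory telogen groups and in ventral early anagen, and to 93 or more in the other 14 groups, all 3 competent telogen groups included. They summed to 187 to 209 FPKM in chin competent telogen and 197 to 233 in ventral competent telogen. Mid anagen of the same domains had 94 to 140 and 128 to 148. Differences that touch chin or ventral competent telogen therefore rest on those groups as well. One of the 2 ventral catagen libraries carries an ear location in 1 label field. The stage names are therefore used below as labels. Estimated depth was 6740000 to 24700000 fragments in the skin libraries and 7090000 to 26000000 in the ear table.

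The 8 genes differed widely in level. The Id genes were high, with library medians of 202 FPKM for Id3, 162 for Id2, 129 for Id1 and 52.8 for Id4. Bambi had a median of 42.95 FPKM, Smad7 of 8.13 and Smad6 of 5.02. Smad9, a transducing SMAD that is itself a target of the pathway, ranged from 0.07 to 0.60 FPKM over the 43 libraries, too low to be tested in the skin table. The genes with the lowest levels among the 7 tested moved the most: the ratio of the highest to the lowest group mean was 5.70 for Bambi, 3.85 for Smad6 and 3.82 for Smad7, against 1.97 for Id2, 2.07 for Id4, 2.11 for Id1 and 2.51 for Id3.

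**Figure D1:**
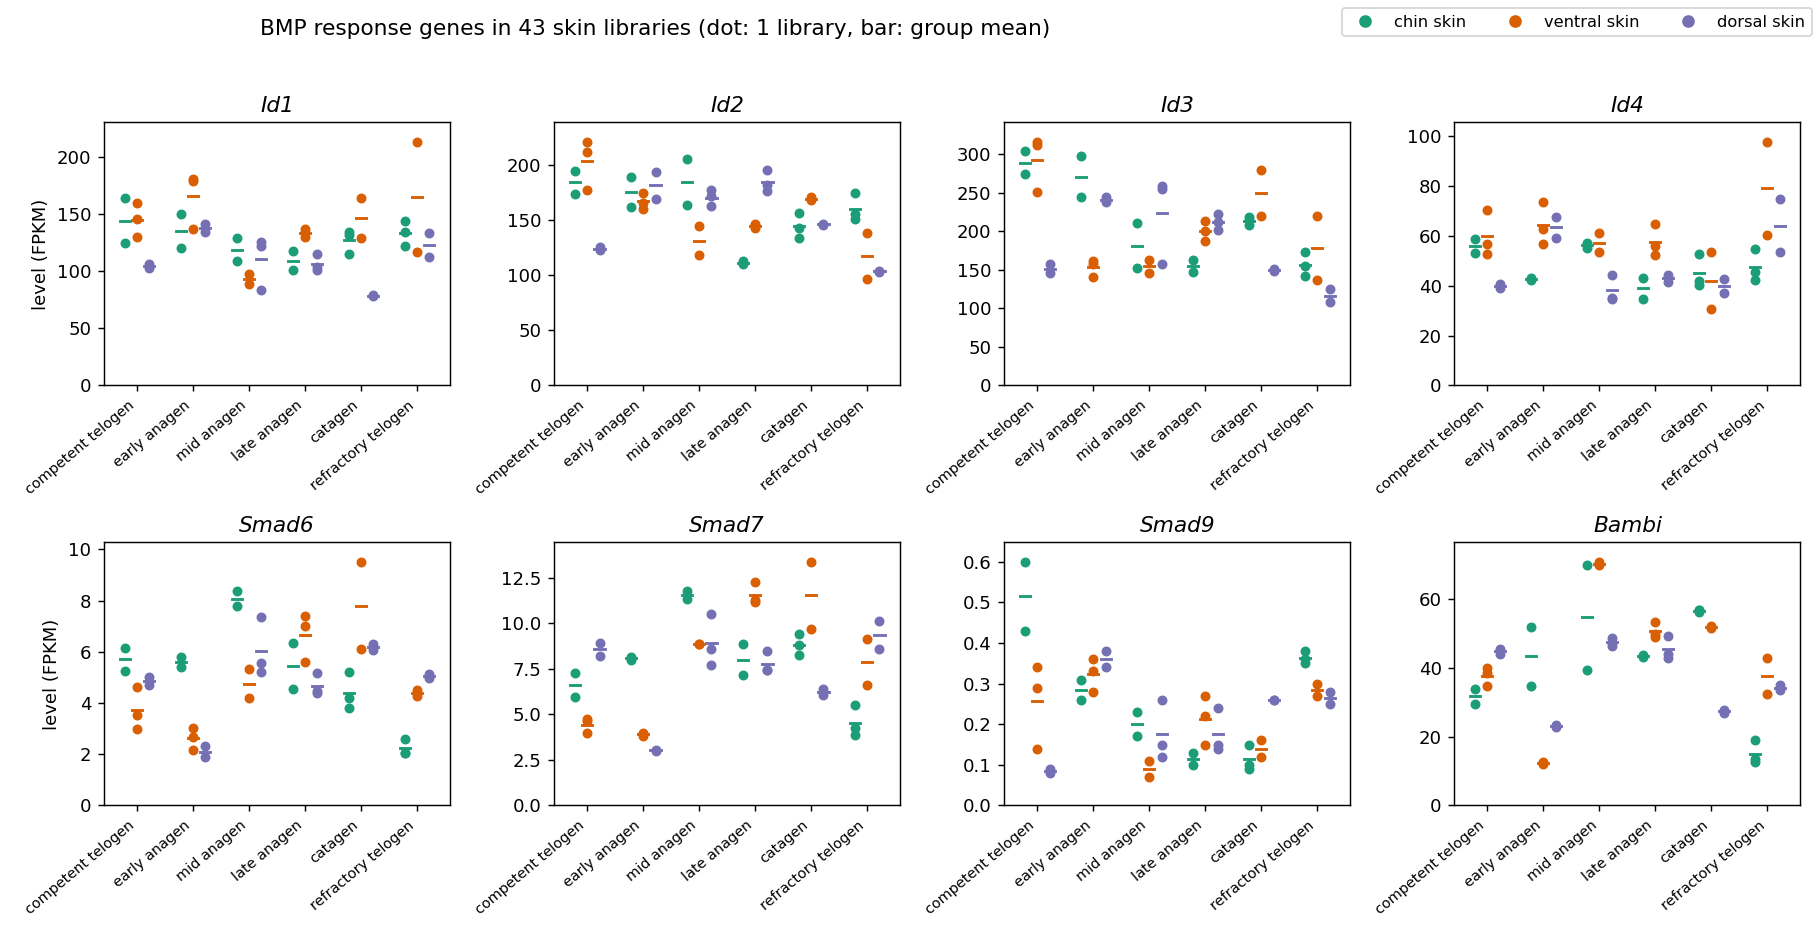
Level in FPKM (linear axis from 0) of each of the 8 genes in every skin library, by labelled stage and domain, with dots for libraries and bars for group means. Bambi lay between 12.0 and 12.7 in the 3 ventral early anagen libraries and between 69.8 and 70.8 in the 2 of ventral mid anagen.

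Differences among the 6 stages were called for 5 of 7 genes in chin skin (Id2, Id3, Smad6, Smad7 and Bambi), beside 66.2% of all genes tested. All 7 were called in ventral skin, beside 70.2% of all genes, and all 7 in dorsal skin, beside 68.5%. Of the 7 genes, 6 passed a test of whether the domains ran through the stages differently (interaction term, 73.3% of all genes), and Id1 missed the threshold at adjusted p = 0.0515. With most genes called, these counts say little about the members in particular. The ventral call of Id1 was lost without ventral mid anagen replicate 1 (adjusted p = 0.0949), that of Id4 without ventral catagen replicate 2 (0.2), and the dorsal call of Id1 without dorsal early anagen replicate 2 (0.0622) or either dorsal catagen library (0.0985 and 0.0897), and also when libraries were scaled by the median of ratios (0.0734). When the competent telogen and early anagen libraries were left out, Id3 was no longer called in chin or ventral skin, Id1 and Smad6 were no longer called in dorsal skin, and Id4 lost and Id1 gained the interaction. In chin skin Id1 and Id4 were not called (adjusted p = 0.489 and 0.145).

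Over the 18 steps between consecutive stages, the 7 genes gave 52 calls in 126 tests, 22 higher and 30 lower, or 41.3% of their tests. Of all gene and step combinations 28.8% were called, 14.5% higher and 14.3% lower. The last step of each domain, from refractory to competent telogen, closes the cycle and does not follow in age. In the 14 steps that do not touch chin late anagen or dorsal competent telogen the share was 41.8% (30% of all genes), and in the 9 steps that touch neither competent telogen nor early anagen it was 36.5% (25.5%). Without ventral catagen it was 41.1% (29.9%). Of the 52 calls, 22 held under every alternative tried: 7 of Bambi, 5 each of Smad6 and Smad7, 2 each of Id2 and Id3 and 1 of Id1. In these bulk samples, fewer cells of a type and less RNA per cell cannot be told apart.

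Bambi, the pseudoreceptor, showed the deepest troughs. In ventral skin it stood at 38.5, 39.99 and 34.7 FPKM in competent telogen, at 12.0, 12.7 and 12.2 in early anagen and at 69.8 and 70.8 in mid anagen. The 3 groups did not overlap. The fall was -1.54 ± 0.14 (adjusted p = 1.00e-09, limma) and the rise 2.42 ± 0.16 (adjusted p = 1.10e-12). Both rest on ventral early anagen, whose proliferation markers lay in the range of refractory telogen, and the fall rests on ventral competent telogen too. Chin skin had its trough elsewhere. There Bambi was at 56.7, 56.1 and 56.8 FPKM in catagen and at 13.4, 19.0 and 12.6 in refractory telogen, a change of -1.87 ± 0.14 (adjusted p = 1.50e-11), and at 33.9 and 29.5 in competent telogen, a change of 1.05 ± 0.16 (adjusted p = 5.79e-06). The latter change rests on chin competent telogen. Dorsal skin had shallower dips: 44.1 and 45.4 FPKM in competent telogen, 22.8 and 23.3 in early anagen, 46.4, 47.2 and 48.6 in mid anagen, and 27.8 and 26.9 in catagen. The dorsal early anagen libraries lay below both neighbors, by -0.93 ± 0.18 against competent telogen (adjusted p = 9.49e-05) and with a rise of 1.01 ± 0.16 to mid anagen (adjusted p = 1.13e-05). The first of these rests on the dorsal competent telogen libraries, for which 2 genes were called against chin late anagen. The dorsal step from late anagen to catagen was -0.71 ± 0.16 (adjusted p = 0.000754). Ordered by mean, the 4 lowest of the 18 groups were ventral early anagen, chin refractory telogen, dorsal early anagen and dorsal catagen, and of these neighbors the first 2 overlapped in their libraries.

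At 3 steps none of the 7 genes was called: from competent telogen to early anagen in chin skin (2.14% of all genes), from mid to late anagen in dorsal skin (2.68%) and from late anagen to catagen in ventral skin (5.93%).

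Smad7, which blocks signaling by both BMP and TGF-β receptors, fell and rose with Bambi at several of these steps. Dorsal skin had 8.18 and 8.93 FPKM in competent telogen, 3.01 and 3.04 in early anagen and 7.73, 10.5 and 8.56 in mid anagen. The dorsal early anagen libraries were the lowest of all 43, and the steps were -1.25 ± 0.15 (adjusted p = 7.69e-08) and 1.29 ± 0.13 (adjusted p = 7.37e-09), the first resting on those same competent telogen libraries. In ventral skin Smad7 was already low in competent telogen, at 4.62, 4.72 and 3.97 FPKM, stayed at 3.91, 3.80 and 3.97 in early anagen and reached 8.85 and 8.83 in mid anagen (1.01 ± 0.13, adjusted p = 4.49e-07). That rise rests on ventral early anagen. The step from competent telogen to early anagen was not called in ventral skin for Smad7. In chin skin Smad7 was at 8.23, 9.41 and 8.82 FPKM in catagen and at 3.86, 5.52 and 4.24 in refractory telogen (-0.84 ± 0.12, adjusted p = 9.86e-07).

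Smad6, the inhibitory SMAD with a preference for BMP receptors, followed the same steps at lower level. In dorsal skin it was at 5.02 and 4.72 FPKM in competent telogen, at 2.31 and 1.88 in early anagen and at 5.58, 7.34 and 5.21 in mid anagen, with steps of -0.93 ± 0.18 (adjusted p = 0.00013), again resting on dorsal competent telogen, and 1.18 ± 0.16 (adjusted p = 1.61e-06). The early anagen libraries overlapped neither neighbor. In chin skin the 3 refractory telogen libraries had 2.04, 2.60 and 2.03 FPKM, below the 5.20, 4.18 and 3.81 of catagen (-0.74 ± 0.15, adjusted p = 0.000117) and the 6.16 and 5.25 of competent telogen, a rise of 1.06 ± 0.16 to that group (adjusted p = 7.13e-06). The ventral step from early to mid anagen, which rests on ventral early anagen, was 0.67 ± 0.16 (adjusted p = 0.0015), from 2.16, 2.67 and 3.03 FPKM to 5.32 and 4.19. Chin skin had its highest Smad6 in mid anagen, at 7.77 and 8.36 FPKM, and its Smad6 rise from refractory to competent telogen rests on chin competent telogen.

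**Figure D2:**
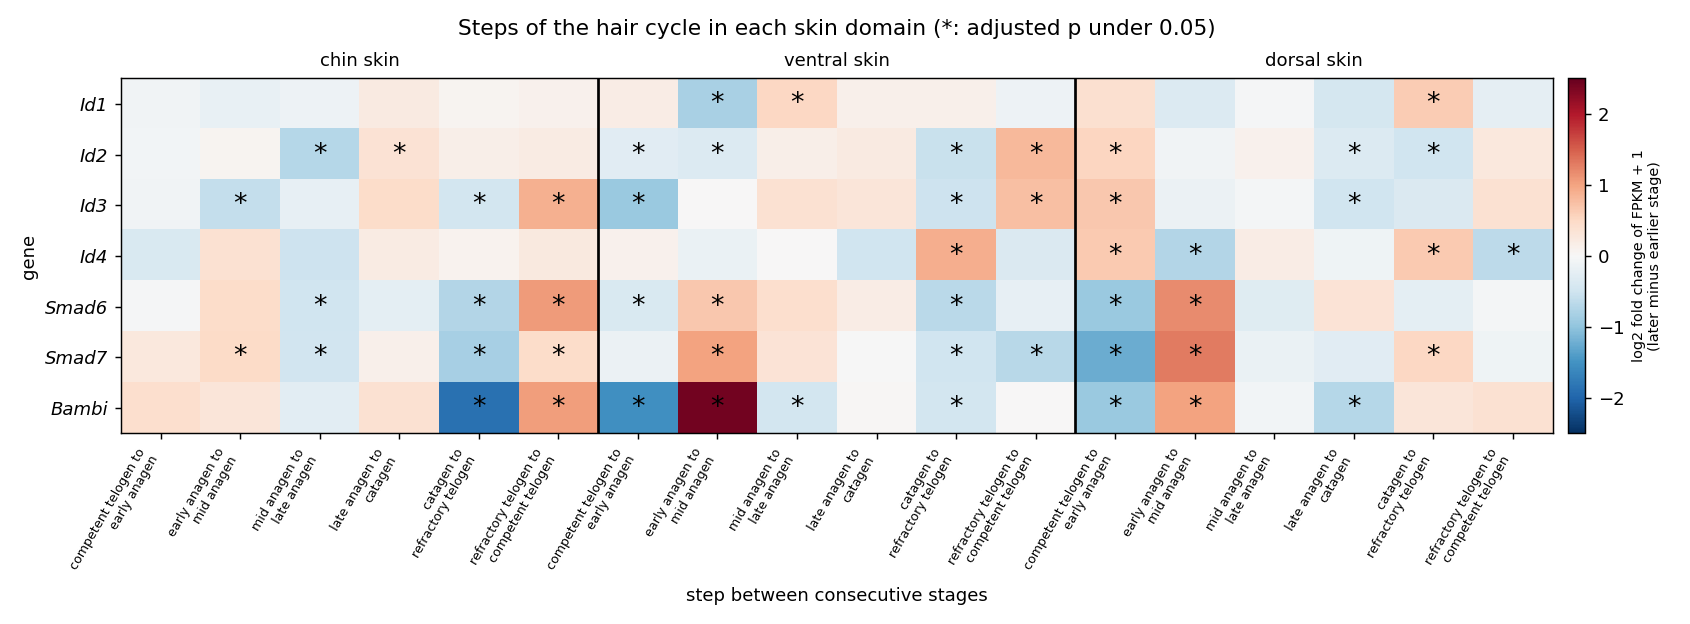
Log2 fold change of FPKM + 1 (color, later minus earlier stage) at each of the 18 steps between consecutive labelled stages, for the 7 genes tested, with asterisks for calls. Bambi at the ventral step from early to mid anagen (2.42) was the largest of the 126 values, and none of the 7 genes was called at 3 steps: chin competent telogen to early anagen, dorsal mid to late anagen and ventral late anagen to catagen.

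Over the 18 group means Smad6 and Smad7 had a Pearson r of 0.87, Smad7 and Bambi of 0.80 and Smad6 and Bambi of 0.71 (a description, since the groups share depth and tissue makeup). Their levels moved with the hair matrix and shaft markers: r was 0.88 for Bambi, 0.85 for Smad7 and 0.77 for Smad6 against the summed marker level over the same 18 groups. The marker sum was 3267 to 3544 FPKM in ventral early anagen, 4187 to 6158 in chin refractory telogen and 5951 to 6398 in dorsal early anagen. These were the 3 groups in which Bambi was lowest. In dorsal mid and late anagen the sum was 19725 to 22726. Not every group followed this order. Dorsal catagen, with rank 4 from the lowest for Bambi (mean 27.3 FPKM), had a sum of 13237 to 13550. Ventral competent telogen had a sum of 6392 to 7540 and a Bambi mean of 37.7. Endothelial markers moved the other way, with r of -0.81 for Smad6, -0.78 for Smad7 and -0.72 for Bambi, and reached 249 to 258 FPKM in ventral early anagen against 47 to 131 in the other 17 groups. The part of these cell types in the results was not tested. The gene most like Bambi over the 18 groups was Msx2 (r 0.95), a homeobox target of BMP signaling in the hair matrix, followed by D730001G18Rik (0.93). Arid3a (0.95) and the hair keratin gene Krt31 (0.92) were most like Smad7, and Abhd17c (0.88) and Smad7 itself (0.87) most like Smad6, among 9472 genes compared.

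**Figure D3:**
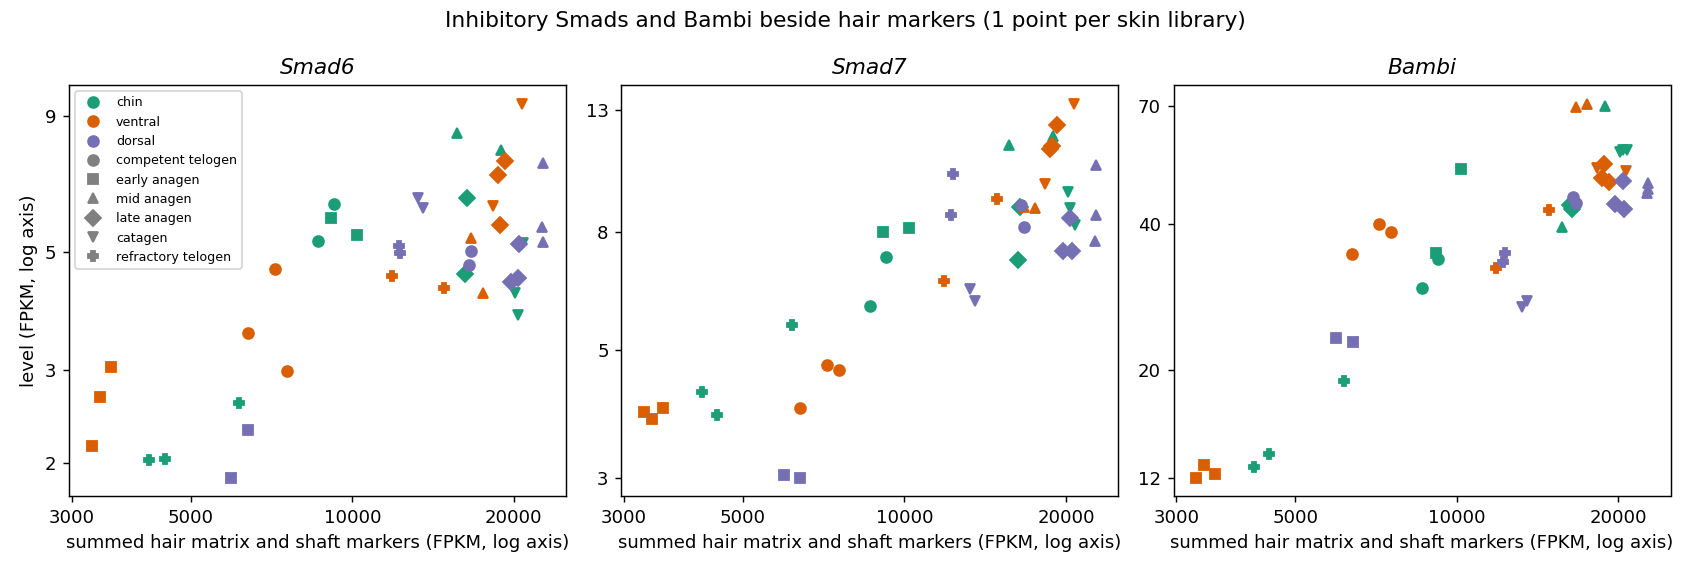
Level of Smad6, Smad7 and Bambi (FPKM, log axis) in each of the 43 skin libraries against the summed level of the hair matrix and shaft markers (FPKM, log axis), with colors for domains and shapes for stages. The ventral early anagen and chin refractory telogen libraries sit at the lower left for Bambi.

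The Id genes moved less, and not together with the inhibitors. Id2 and Id3 had an r of 0.76 with each other, and neither reached 0.2 with Bambi. Id3 was at 316, 312 and 250 FPKM in ventral competent telogen and at 140, 161 and 158 in early anagen, without overlap (-0.92 ± 0.16, adjusted p = 2.26e-05, resting on ventral early anagen and ventral competent telogen). In chin skin it rose from 173, 142 and 155 FPKM in refractory telogen to 303 and 274 in competent telogen (0.88 ± 0.18, adjusted p = 0.00021). That rise rests on chin competent telogen. Nudt21 (r 0.91) and Sf1 (0.90), both of RNA processing, were the genes most like Id3.

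Id2 in ventral skin was at 138 and 96.5 FPKM in refractory telogen and at 177, 221 and 212 in competent telogen (0.80 ± 0.12, adjusted p = 2.32e-06), where the median of all genes was 0.22. That rise rests on ventral competent telogen. In chin skin Id2 fell from 205 and 164 FPKM in mid anagen to 113 and 110 in late anagen (-0.71 ± 0.13, adjusted p = 0.000175). The late anagen libraries were below every other chin library, and the fall rests on the group that matched dorsal competent telogen. In dorsal skin Id2 and Id3 rose from competent telogen to early anagen by 0.54 ± 0.13 and 0.67 ± 0.19 (adjusted p = 0.00109 and 0.00624), which also rests on dorsal competent telogen, while Smad6, Smad7 and Bambi fell at the same step. Of all genes 35.2% were called higher and 8.24% lower there, and the median was 0.25. Neither Id call held when libraries were scaled by the median of ratios (adjusted p = 0.515 and 0.438), the only alternative that ended them. Dennd2d (0.91) and Abcb10 (0.87) were most like Id2.

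Id1 lay between 101 and 164 FPKM in the 14 chin libraries. In ventral skin it was at 137, 181 and 179 FPKM in early anagen and at 88.8 and 97.7 in mid anagen (-0.81 ± 0.18, adjusted p = 0.00063). At this step, which rests on ventral early anagen, the 3 inhibitors rose, as did 16.8% of all genes. Keratinocyte markers summed to 10198 to 10676 FPKM in these early anagen libraries and 3745 to 4006 in mid anagen, and endothelial markers to 249 to 258 and 94.0 to 96.8. Over the 18 groups Id1 and Id4 each had an r of 0.74 with the keratinocyte sum and Id3 of 0.68 with the proliferation sum, as a description. The part of these cells in the Id levels was not tested. Sertad3 (0.87) and Top3b (0.86) were most like Id1. Id4 gave 5 step calls, none of which held under every alternative. Its 2 ventral refractory telogen libraries had 97.7 and 60.5 FPKM, the former the highest of all 43, and those of Id1 in the same libraries were 117 and 213. Irx4 (0.83) and Shisa2 (0.81) were most like Id4. These likenesses are of group means. Between libraries of the same group r was negative for Sf1 with Id3 (-0.23), Top3b with Id1 (-0.17) and Irx4 with Id4 (-0.43). It was positive for the other genes named as most like a member. For Smad9 the highest values were 0.60 and 0.43 FPKM in chin competent telogen and the lowest 0.07 in ventral mid anagen.

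The comparison of domains at 1 stage asks whether skin regions with different telogen lengths differ in their response genes. Over the 18 pairs of domains the 7 genes gave 51 calls in 126 tests (40.5%), 19 higher and 32 lower. Of all gene and pair combinations 26.4% were called, 12% higher and 14.5% lower. In the 12 pairs without competent telogen and early anagen the share was 36.9% (22.2% of all genes), and in the 14 without chin late anagen and dorsal competent telogen it was 40.8% (25.4%). Of the 51 calls 24 held under every alternative, 7 of them of Bambi.

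In refractory telogen the inhibitors were lower in chin skin than in the other domains. Bambi was at 13.4, 19.0 and 12.6 FPKM in chin, at 42.7 and 32.5 in ventral and at 34.9 and 33.4 in dorsal skin, and chin did not overlap with either. The differences were 1.28 ± 0.16 for ventral and 1.16 ± 0.16 for dorsal minus chin (adjusted p = 4.93e-07 and 1.54e-06). Smad7 was at 3.86, 5.52 and 4.24 FPKM in chin and at 10.1 and 8.57 in dorsal skin (0.91 ± 0.13, adjusted p = 3.36e-06), and Smad6 at 2.04, 2.60 and 2.03 against 4.97 and 5.13 (0.91 ± 0.16, adjusted p = 6.05e-05). Id2 went the other way, at 155, 151 and 175 FPKM in chin and 104 and 103 in dorsal skin (-0.62 ± 0.12, adjusted p = 0.000102). In all, 4 of 7 genes were called between dorsal and chin skin (34.8% of all genes) and 5 of 7 between ventral and chin skin (30.7%), Id4 being the fifth, while the medians of all genes were -0.14 and -0.17. Ventral minus chin was 0.74 ± 0.16 for Smad6 (adjusted p = 0.000923) and 0.67 ± 0.13 for Smad7 (adjusted p = 0.00027), the latter no longer called in a fit of that stage alone (adjusted p = 0.0698). Between dorsal and ventral skin only Id3 was called of the 7 (13.7% of all genes), at -0.57 ± 0.19 with adjusted p = 0.0474, a call lost under 35 alternatives with adjusted p up to 0.558. Hair matrix and shaft markers summed to 4187 to 6158 FPKM in chin, 11850 to 14851 in ventral and 12218 to 12296 in dorsal skin at this stage. Skeletal muscle markers summed to 11577 to 18848 FPKM in the chin libraries of this stage, against 966 to 1048 in ventral and 3511 to 3593 in dorsal skin. The part of either in the differences was not tested.

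In early anagen the direction was the opposite. Bambi was at 34.8 and 52.0 FPKM in chin, 12.0, 12.7 and 12.2 in ventral and 22.8 and 23.3 in dorsal skin, so that no domain overlapped with another. Ventral minus chin was -1.71 ± 0.16 (adjusted p = 1.50e-09), dorsal minus chin -0.86 ± 0.18 (adjusted p = 0.000603) and dorsal minus ventral 0.85 ± 0.16 (adjusted p = 8.72e-05). Smad7 was at 8.00 and 8.13 FPKM in chin, above the 3.91, 3.80 and 3.97 of ventral (-0.89 ± 0.13, adjusted p = 4.64e-06) and the 3.01 and 3.04 of dorsal skin (-1.17 ± 0.15, adjusted p = 5.98e-07). Smad6 was lower by -0.87 ± 0.16 in ventral and -1.09 ± 0.18 in dorsal skin (adjusted p = 0.000122 and 4.40e-05). Id3 was lower in ventral than in chin skin, at 140, 161 and 158 against 244 and 297 FPKM (-0.81 ± 0.18, adjusted p = 0.000613). Between ventral and chin skin 5 of 7 genes were called (32.9% of all genes), between dorsal and chin skin 3 of 7 (27%), and between dorsal and ventral skin 2 of 7 (41.7%). The ventral libraries of this stage are those whose proliferation markers lay in the range of refractory telogen, and the differences from ventral skin rest on them. Hair matrix and shaft markers summed to 9136 to 10186 FPKM in chin, 3267 to 3544 in ventral and 5951 to 6398 in dorsal skin, and their part was not tested.

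**Figure D4:**
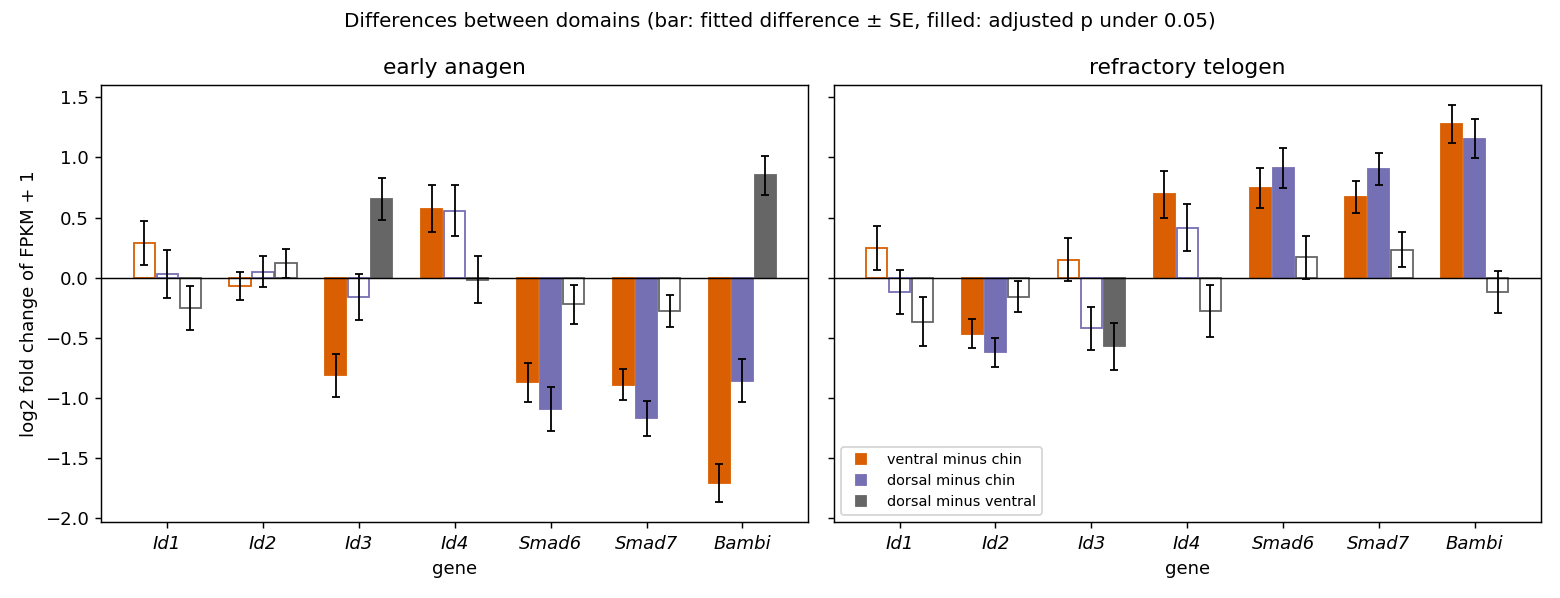
Fitted log2 fold change of FPKM + 1 between domains, with standard errors, in early anagen and refractory telogen for the 7 genes tested (filled bars are called). Against chin skin, Smad6, Smad7 and Bambi were lower in ventral and dorsal skin in early anagen (-0.86 to -1.71) and higher in refractory telogen (0.67 to 1.28).

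At the remaining stages the held calls were fewer. In competent telogen Id3 was at 157 and 146 FPKM in dorsal skin, below the 303 and 274 of chin (-0.92 ± 0.19, adjusted p = 0.000402) and the 316, 312 and 250 of ventral skin (-0.94 ± 0.18, adjusted p = 6.85e-05). Id2 was lower there in dorsal than in ventral skin (-0.70 ± 0.12, adjusted p = 1.42e-05) and Smad7 higher (0.82 ± 0.13, adjusted p = 9.83e-06), while the median of all genes was -0.25. All of these rest on the dorsal competent telogen libraries, whose hair matrix and shaft markers summed to 16487 to 16671 FPKM against 6392 to 7540 in ventral and 8622 to 9228 in chin skin. In catagen Bambi was at 27.8 and 26.9 FPKM in dorsal skin, against 56.7, 56.1 and 56.8 in chin (-1.02 ± 0.16, adjusted p = 6.53e-06) and 51.4 and 52.2 in ventral skin (-0.90 ± 0.18, adjusted p = 0.000168). This Bambi call against ventral catagen held without the library that carries the ear location. The call of Id3 between dorsal and ventral catagen (-0.72 ± 0.19, adjusted p = 0.00392) did not (adjusted p = 0.0854), nor did that of Smad6 between ventral and chin catagen (0.69 ± 0.16, adjusted p = 0.0102). Id1 was also lowest in dorsal catagen, at 78.2 and 79.1 FPKM against 115, 135 and 132 in chin (-0.68 ± 0.18, adjusted p = 0.00325) and 164 and 130 in ventral skin (-0.88 ± 0.20, adjusted p = 0.000875). Smad7 was at 6.08 and 6.39 FPKM in dorsal and at 9.69 and 13.36 in ventral catagen, a call that held under every alternative. The hair markers summed to 13237 to 13550 FPKM in dorsal catagen, 20138 to 20813 in chin and 18289 to 20729 in ventral catagen, and their part in these differences was not tested. In late anagen Id2 was at 177, 182 and 195 FPKM in dorsal and 113 and 110 in chin skin (0.72 ± 0.12, adjusted p = 4.75e-05), which rests on chin late anagen.

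The ear table compares skin that rests for long in telogen with its underlying cartilage and muscle and with dorsal skin. Every difference from dorsal skin here rests on the dorsal competent telogen libraries, for which 2 genes were called against chin late anagen. The ear skin stood out by its low inhibitors. Bambi was at 2.32 and 1.74 FPKM in ear skin, at 45.7, 55.0 and 45.3 in the complex and at 44.1 and 45.4 in dorsal skin. Ear minus dorsal skin was -3.92 ± 0.13 (adjusted p = 3.91e-06), and the complex minus ear skin was 4.04 ± 0.12 (adjusted p = 9.02e-07). Its Smad7 was at 2.02 FPKM in both libraries, against 7.45, 7.50 and 7.29 in the complex (1.48 ± 0.07 for the complex minus ear skin, adjusted p = 7.45e-06) and 8.18 and 8.93 in dorsal skin (-1.66 ± 0.08 for ear minus dorsal skin, adjusted p = 1.48e-05). Smad6 was at 1.05 and 0.97 FPKM in ear skin, 13.6, 16.0 and 11.9 in the complex and 5.02 and 4.72 in dorsal skin, and all 3 pairs were called. These ear skin values of Bambi and Smad6 lie below every library of the skin table, and those of Smad7 too. The calls of Bambi, Smad7 and Smad6 between ear and dorsal skin held under every alternative tried, dorsal refractory telogen as the dorsal group included. That swap keeps a large difference in hair matrix and shaft markers, which summed to 12218 to 12296 FPKM in dorsal refractory telogen and 109 to 115 in ear skin. The part of this difference in the calls was not tested.

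The cartilage/muscle complex had the highest Id1 and Id3 levels of the 48 libraries. Id1 was at 884, 1045 and 903 FPKM there, against 132 and 116 in ear skin (2.92 ± 0.09, adjusted p = 1.31e-06) and 106 and 103 in dorsal skin (3.16 ± 0.09, adjusted p = 8.96e-07). Id3 was at 802, 915 and 790 FPKM, against 130 and 122 in ear skin (2.72 ± 0.08, adjusted p = 9.87e-07) and 157 and 146 in dorsal skin (2.45 ± 0.08, adjusted p = 1.44e-06). Id4 was at 72.6, 62.5 and 76.1 FPKM against 27.9 and 33.9 in ear skin (1.16 ± 0.11, adjusted p = 0.000196). Smad9 was above 1 FPKM only in the complex among all libraries, at 1.47, 1.69 and 1.61 against 0.20 and 0.10 in ear skin and 0.09 and 0.08 in dorsal skin. The differences were 1.17 ± 0.09 and 1.25 ± 0.09. Smad9 passed the filter of 0.5 FPKM in 2 or more libraries only through the complex. Its calls as higher there were therefore fixed by the filter and carry no weight. Id2 differed less: it was at 122, 116 and 135 FPKM in the complex, 161 and 159 in ear skin and 125 and 123 in dorsal skin.

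**Figure D5:**
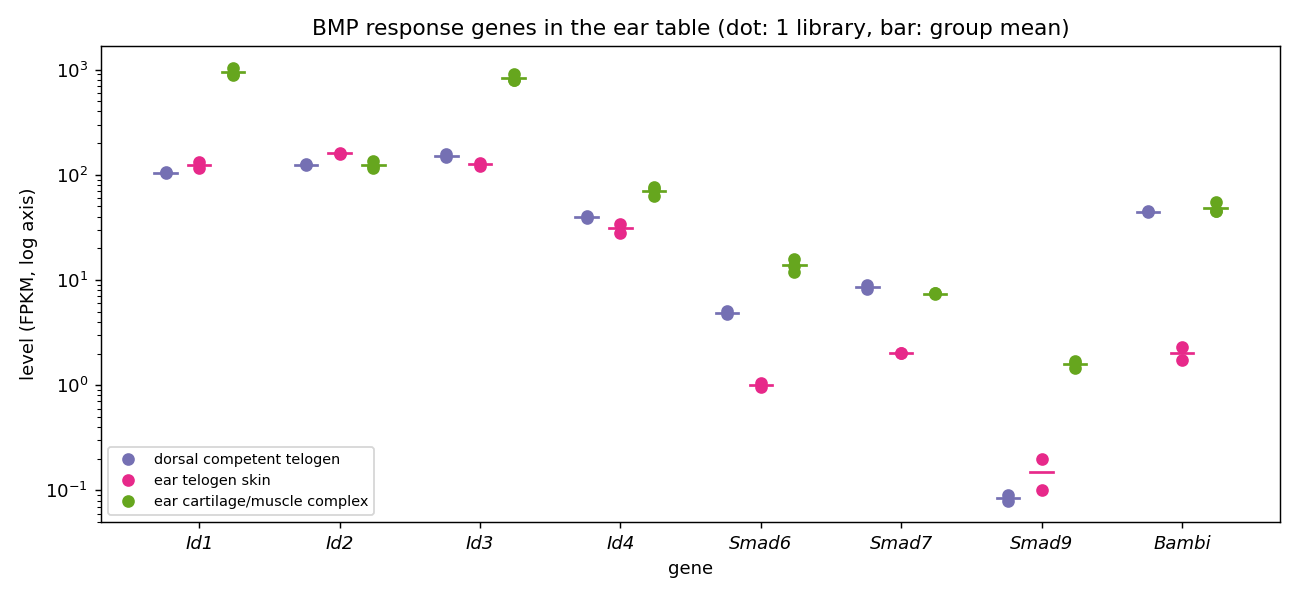
Level of the 8 genes (FPKM, log axis) in the 7 libraries of the ear table, with dots for libraries and bars for group means. Id1 and Id3 lay between 790 and 1045 in the complex, and Bambi between 1.74 and 2.32 in ear skin against 44.1 to 55.0 elsewhere.

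In counts, 8 of 8 genes were called between the complex and ear skin, 7 higher and Id2 lower, beside 66.5% of all genes (28% higher and 38.5% lower, median -0.11). Smad9 is among these 8, and was tested only because of its level in the complex. Id2 (-0.36 ± 0.07, adjusted p = 0.00452) was not called after quantile normalization (adjusted p = 0.197), which left 7 higher and 0 lower. Between ear and dorsal skin 6 of 8 were called (59.3% of all genes, 44.7% higher and 14.6% lower), 5 lower and Id2 higher (0.36 ± 0.08, adjusted p = 0.00834). The Id2 direction turned to -0.13 with libraries scaled by the median of ratios, and the median of all genes in that comparison was 0.33. Id3 (-0.27 ± 0.09, adjusted p = 0.0443) and Id4 (-0.36 ± 0.13, adjusted p = 0.0475) were the weakest of the 6, and Id3 was at 0.11 with dorsal refractory telogen as the dorsal group. The count was 3 without dorsal competent telogen replicate 2, and 4 without replicate 1, without complex replicate 1 or without the ear skin column numbered 2. The split was 2 higher and 3 lower after TPM rescaling and 0 higher and 5 lower with the median of ratios. Between the complex and dorsal skin 5 of 8 were called, all higher (71.1% of all genes, 42.8% higher and 28.3% lower, median 0.24), while Smad7, Bambi and Id2 were not called. Smad9 is among these 5 as well. The split was 5 higher and 2 lower with the median of ratios, 5 and 1 with quantiles equalized between libraries, and 6 and 1 with dorsal refractory telogen as the dorsal group. With dorsal refractory telogen in place of competent telogen Id4 was no longer called between the complex and dorsal skin.

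Cell type markers moved with these tissues. Cartilage markers summed to 1616 to 2028 FPKM in the complex and to under 3 in ear and dorsal skin, and skeletal muscle markers to 17392 to 20140 against 1204 to 1210 in ear skin. Hair matrix and shaft markers summed to 0.34 to 0.38 in the complex, with 7 of the 8 found at 0 in every library, to 109 to 115 in ear skin and to 16487 to 16671 in dorsal skin. Bambi was at 45.3 to 55.0 FPKM in the complex and at 44.1 to 45.4 in dorsal skin. Which cells carry it in either tissue was not tested. The labels do not separate cartilage from muscle, so the cells that carry the Id1 and Id3 levels cannot be told apart.

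The other genes of the pathway were counted from lists by role. In refractory telogen, of 8 ligand genes tested 4 were higher and 1 lower in dorsal than in chin skin (median 0.34 against -0.14 for all genes), with Bmp8a at 1.54 ± 0.14, Bmp3 at -0.79 ± 0.14 and Bmp4 at 0.71 ± 0.12. Of all genes 7.61% were higher and 27.2% lower there. Of 13 secreted antagonists none was higher and 8 were lower (median -0.45), with the BMP-binding Chrdl1 at -1.61 ± 0.20, Fstl1 at -1.26 ± 0.16 and Nbl1 at -1.04 ± 0.12. Of 11 other targets and feedback genes 3 were higher and none lower, namely Msx2 (1.40 ± 0.15), Dlx3 (1.24 ± 0.18), both homeobox genes of the hair matrix, and the ubiquitin ligase gene Smurf2 (0.55 ± 0.12). With the median of ratios the targets split into 5 higher and 0 lower and the antagonists into 1 and 7, and after TPM rescaling the ligands split into 3 and 2 and the targets into 3 and 1. Of 10 receptors and coreceptors 4 were higher and 4 lower, with the endothelial Acvrl1 (-1.24 ± 0.15) and Eng (-1.11 ± 0.16) down and Bmpr1a (0.83 ± 0.17) up (5 higher and 2 lower with the median of ratios). Of the 5 transducing Smads listed, Smad1 (0.48 ± 0.12) and Smad2 (0.41 ± 0.12) were higher. The product of Smad2 is not among the SMADs named above as phosphorylated by BMP receptors.

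In early anagen the targets Msx1 (-3.20 ± 0.25), Msx2 (-2.08 ± 0.15) and Dlx3 (-2.05 ± 0.18) were lower in ventral than in chin skin, among 4 lower and none higher of 11. Acvrl1 (1.19 ± 0.15) and Eng (1.63 ± 0.16) were higher, among 4 of 10 receptors, and none was lower, beside 13% of all genes higher and 19.8% lower. At the ventral step from early to mid anagen these targets rose by 3.28 ± 0.25, 2.58 ± 0.15 and 1.88 ± 0.18, the step at which Bambi rose most, while 8 of 10 receptors fell (median -0.51, all genes -0.09), beside 25.6% of all genes called lower. Antagonists gave 3 higher and 7 lower of 13 at that step, and 3 and 3 with the median of ratios. All differences of this paragraph rest on ventral early anagen.

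In the ear table, the complex against ear skin had 5 of 10 ligands higher and 4 lower, with Gdf5 (5.74 ± 0.10), a ligand of joints and cartilage, Bmp5 (4.99 ± 0.10) and Bmp7 (-3.11 ± 0.10) the largest. Of all genes 28% were called higher and 38.5% lower in that comparison. Of 14 antagonists 8 were higher and 4 lower, with Nog (3.01 ± 0.12), Grem1 (2.77 ± 0.10) and the follicle gene Sostdc1 (-4.92 ± 0.09) the largest. Ear against dorsal skin had 2 ligands higher and 5 lower, led by Bmp8a (-3.42 ± 0.11) and Bmp4 (-1.07 ± 0.10), and 7 antagonists higher and 4 lower, led by Nbl1 (1.89 ± 0.15) and Fstl1 (1.57 ± 0.07). Of all genes 44.7% were called higher and 14.6% lower between ear and dorsal skin, a comparison that rests on dorsal competent telogen. Among the targets Dlx3 (-3.41 ± 0.13) and Msx2 (-2.53 ± 0.10) were lower and Dlx5 (2.28 ± 0.10) higher. The targets as a list split into 3 higher and 4 lower. With the median of ratios the antagonists split into 5 and 5 and the targets into 1 and 8, and after TPM rescaling the antagonists split into 8 and 2 and the ligands into 3 and 4. The 3 E protein genes, whose products the IDs bind, were all higher in ear than in dorsal skin, with Tcf4 at 1.28 ± 0.10, Tcf3 at 0.66 ± 0.19 and Tcf12 at 0.50 ± 0.08, but 1 of the 3 was called with the median of ratios.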

How the data were processed

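Whole-skin RNA was made into full-length cDNA libraries (SMART-seq2) and sequenced as pairs. The authors aligned reads to mm10 with GENCODE vM8 and quantified them with RSEM 1.2.25, and the deposited values are FPKM per gene. Their methods mention a batch correction. Whether it was applied to these values is not given in the sources used here. Groups came from the labels. No column of counts was used, so FPKM were tested as log2(FPKM + 1) with limma 3.58.1 (R 4.3.3, variance trend) on genes that reached 0.5 FPKM in 2 or more libraries, with 43 skin libraries in 1 fit of 18 groups and the 7 ear table libraries in another. A log2 fold change on this scale understates the change of low genes. In simulated data for dorsal early anagen minus competent telogen over 21257 genes, 85 of 100 genes changed by 1 (log2) and 98 of 100 changed by 2 were called, with 10 false among 193 calls. Depth was estimated from the FPKM steps of 1 fragment in genes with a single transcript, a method that returned 0.866 of the known depth of the deepest simulated library and 0.997 of that of the shallowest. Positions are from GENCODE vM21 (GRCm38), and sequences from RefSeq (GRCm38.p6). Named were the 8 members, up to 3 called list genes with the largest change per list and comparison, and the 2 genes most like each member among those with a mean of at least 5 FPKM. The members, lists and tests were chosen with earlier results of these data known. Alternatives were other pseudocounts, filters, scalings, fits, blocks and left-out libraries. Coding sequences and proteins were not used here.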

Additional observations from a re-analysis of the deposited data

Results flagged for a closer look

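Of the 7 genes tested, 6 had a course through the 6 stages that depended on the domain, by the interaction term of the fit (limma, adjusted over 21257 genes, of which 73.3% passed). The adjusted p was 2.25e-10 for Bambi, whose trough was in early anagen in ventral and dorsal skin and in refractory telogen in chin skin. It was 1.34e-09 for Smad7 and 2.41e-07 for Smad6, the inhibitory SMADs. It was 2.85e-07 for Id2, 5.48e-06 for Id3 and 0.00967 for Id4. Without the competent telogen and early anagen libraries Id4 was no longer called, the other 5 were, and Id1 was added. No group held enough libraries to look for a single library far from the rest. The marker levels of the ventral early anagen and competent telogen libraries, given above, differ from those of the same stage label in other domains. Beyond the refit just given, which left out these stages in every domain, their part in the interaction was not tested.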

How the results depend on the processing

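The step calls numbered 46 to 54 and the domain calls 49 to 54 under other pseudocounts, filters, scalings and fits (52 and 51 as reported). With 1 library left out they numbered 47 to 54 and 44 to 60. Restricted to comparisons without competent telogen and early anagen they numbered 23 and 31, and without chin late anagen as well 19 and 28, since fewer comparisons were counted. With 1 library left out, members called were 5 in chin, 6 to 7 in ventral and 6 to 7 in dorsal skin, 6 to 7 for the interaction, 8 for the complex against ear skin, 5 against dorsal skin and 3 to 7 for ear against dorsal skin, where the lowest was without dorsal competent telogen replicate 2. Id2 in ear against dorsal skin reversed to -0.13 (median of ratios) and Id3 to 0.11 (dorsal refractory telogen as the dorsal group). The cause was not tested. Scaling by the median of ratios kept 38 of 52 step calls, 43 of 51 domain calls and 18 of 19 ear table calls. Smad9 was the lowest of the members, at 0.60 FPKM or less in skin, where it did not pass the filter. Whether depth limits it was not tested. The ear table counts include the Smad9 calls in the complex, which the filter fixed. The replicate numbers showed little pairing in these values: of 327 same-numbered pairs of libraries 9 had deviations correlated above 0.1 (median r 0.003). A batch correction, if applied, could have removed a shared deviation, so this check cannot say whether the numbers once paired the libraries. With the replicate block there were 48 step calls and 53 domain calls, 48 and 50 of them among those reported, and 5, 7 and 7 members called among the stages and 6 for the interaction. The numbers of the ear skin columns (2 and 3) are not those of the labels (1 and 2), so the block could be fitted there only for the complex against dorsal skin, with 5 calls. Pathway list calls under other scalings were 347 to 383 of 900 tests over the steps and 330 to 346 of 900 over the domain pairs. In the ear table they were 127 to 138 of 159. As reported, 28.8% of all gene and step combinations and 26.4% of all gene and pair combinations were called. In the 3 ear table comparisons 59.3% to 71.1% of all genes were called.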
